A study of Drosophila melanogaster with 6 samples.

Results

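The Sox family of Drosophila melanogaster comprises 8 genes here, SoxN, D, Sox14, Sox15, Sox21a, Sox21b, Sox100B and Sox102F, taken by symbol from the Release 6 gene table, in which 13921 protein-coding genes lie on the 6 chromosome arms that carried peaks. All 8 were found, on 5 of these arms. For each gene, the mark trimethylated lysine 27 of histone H3 (H3K27me3) was read from the authors' list of 1709 broad peaks in wing imaginal discs that expressed H3K27R, and each gene was looked up among the 148 genes that the authors list as upregulated with H3K27M. The members are the genes of the family, and the family was picked with earlier results of these data known.

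The study profiled H3K27me3 by CUT&RUN, in which an antibody guides a nuclease to cut out the chromatin that carries a mark, in larval wing discs, the precursors of the adult wing and thorax. There were 2 H3K27me3 libraries and 1 IgG library for each of 2 genotypes, 6 in all, with 20 discs dissected per replicate. One genotype carried UASt-H3 K27M, an oncohistone in which lysine 27 is replaced by methionine, and the other UASt-H3 K27R, the control with arginine there. Both carried Act5C-GAL4, a driver from an actin promoter that is active in most cells, and alphaTub84B-GAL80ts, a temperature-sensitive repressor of that driver. Larvae were kept at 25 °C, moved to 32 °C at 44 h after egg laying, expressed the transgene for 72 h and were staged to 116 to 119 h. The control discs thus also expressed a mutant histone, and discs without a transgene were not analysed here. The peak list is 1 list for both H3K27R replicates, so no value below has a replicate spread and none was tested for a difference. Read depth is unknown, and H3K27me3 in H3K27M discs was not analysed here. A peak in whole discs cannot tell fewer marked cells from less mark per cell.

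Sox proteins are transcription factors that bind DNA through a high-mobility-group (HMG) box, bend it, and often act with a partner factor. They are grouped by the sequence of that box: SoxN, D, Sox21a and Sox21b are SoxB genes, Sox14 is the SoxC gene, Sox102F the SoxD gene, Sox100B the SoxE gene and Sox15 the SoxF gene. H3K27me3 is written by Polycomb repressive complex 2 and marks developmental genes that are held silent in a given cell type, often in blocks far wider than the gene.

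In control discs, 7 of the 8 Sox genes overlapped an H3K27me3 peak by at least 1 bp, whereas 7.22% of all protein-coding genes did (1005 of 13921). Coverage of at least 50% of the gene span was seen in 6 of the 8, against a background of 4.04%, and the whole span was covered in 4 (SoxN, D, Sox21b and Sox15), against 2.51%. Strong peaks, taken here as those whose −log10 q-value reached 10, lay over the same 6 genes that were covered over at least 50%, against 3.43% of all genes. Either end of the span lay in a peak for 6 of the 8, against 4.58%. The median covered share over the 8 genes was 95.1%, and over all protein-coding genes it was 0%. Together the 8 genes span 100.1 kb, of which 78.9 kb (78.8%) lay in peaks, compared with 5.13% of the summed span of all protein-coding genes. The 8 members are not 8 separate observations, because D and Sox21b share 1 peak. The median span of the Sox genes was 8701 bp and that of all protein-coding genes 2163 bp, and longer genes meet an interval more often; the part of length in these counts was not tested.

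The authors' fold enrichment, 1 value per peak over the peak caller's background, ordered the family as follows. Sox100B stood highest at 16.1-fold, followed by D and Sox21b at 11.6-fold, SoxN at 9.43-fold, Sox102F at 5.53-fold, Sox15 at 5.04-fold and Sox21a at 2.44-fold, while Sox14 had no peak. Among the 1005 protein-coding genes with a peak, the median of the highest fold was 3.14, and Sox100B exceeded 98.4% of them. D and Sox21b exceeded 88.2%, SoxN 79.6%, Sox102F 64.3%, Sox15 60.6% and Sox21a 30.8%. Without a spread between replicates, it cannot be said which neighbours in this order differ.

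**Figure D1:**
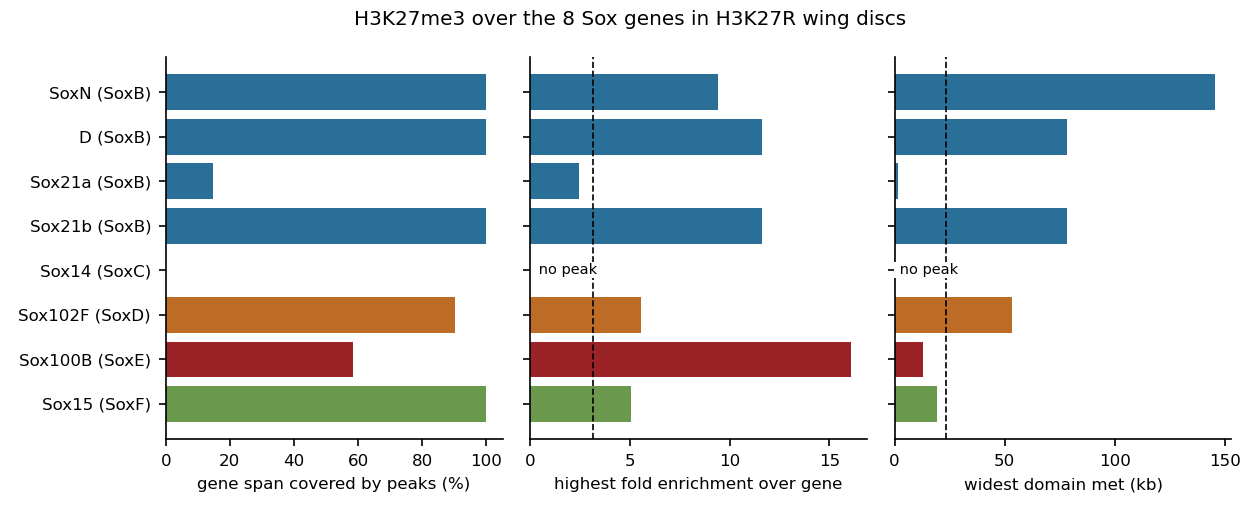
Horizontal bars give, for each of the 8 Sox genes, the share of the gene span covered by peaks (%), the highest fold enrichment of a peak over the gene, and the width of the widest domain it meets (kb); colours mark the Sox groups and dashed lines the medians of the 1005 protein-coding genes with a peak (3.14-fold and 23.4 kb). Sox100B has the highest fold, 16.1, with a domain of only 13.0 kb, SoxN has the widest domain at 145.6 kb, Sox21a is covered over 14.6%, and Sox14 has no peak.

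The SoxB genes held the widest blocks of the family, with 1 exception among the 4. SoxN (SoxNeuro) acts with D in forming the neural precursors of the embryonic nervous system. It is annotated as Dmel_CG18024 at 2L 8825645 to 8829670 and was covered over 100% of its 4026 bp. Its span lay inside 1 peak of 109.7 kb that reached 47390 bp below and 58316 bp above the gene, at 9.43-fold and a −log10 q-value of 72.6. Here, below and above refer to lower and higher coordinates, since the gene table gives no strand. SoxN itself made up 2.76% of its domain. Peaks separated by no more than 5000 bp were joined into domains, 748 over the genome, and the SoxN domain ranked 8 by width and 75 by highest fold.

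Within the SoxN domain, 2L 8746880 to 8892520, the mark was strong in the centre and weak at the flanks. The domain comprised 8 peaks, and the 7 other than the central one had folds of 1.91 to 2.69. No other protein-coding gene lay within 43.1 kb below or 33.1 kb above SoxN, and both of these stretches were inside the central peak. The 13 other protein-coding genes of the domain were each covered over at least 50%. On the lower side they included LManIII, LManIV and LManV, genes of alpha-mannosidases, under a peak of 2.64-fold, and LManVI, which the central peak reached. On the upper side lay CG32986, CG32987, CG32988, CG32983 and CG9483, all covered over 100% by the central peak. The domain ended 6.22 kb short of raw on the lower side and 6.27 kb short of CG34398 on the upper side.

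D (Dichaete), which is needed for segmentation, the nervous system midline and the hindgut of the embryo, lay with its paralogs Sox21b and Sox21a in one cluster on 3L. D (Dmel_CG5893, 3L 14175610 to 14178620) and Sox21b (Dmel_CG32139, 3L 14112405 to 14131324) were both covered over 100% by a single unbroken peak of 78.1 kb, at 11.6-fold and a −log10 q-value of 95.6. The peak is also a domain by itself, which ranked 40 by width and 46 by highest fold. It began 810 bp below Sox21b and ended 11.1 kb above D. The 44.3 kb between the genes holds no other protein-coding gene, only lncRNA:CR45887, and was covered throughout. D made up 3.85% of this domain and Sox21b 24.2%. The one protein-coding gene besides them was nan, which encodes an ion channel of mechanosensory neurons, also covered over 100%. Beyond the upper edge, nuf, a gene for an endosome-associated protein, began 1145 bp away.

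Sox21a, the third gene of the cluster, was not part of this block. It controls the proliferation and differentiation of intestinal stem cells in the adult gut, and is annotated as Dmel_CG7345 at 3L 14103481 to 14108118, 4286 bp below Sox21b. It carried 2 small peaks inside its span, 1 of 445 bp at 2.01-fold with a −log10 q-value of 1.43 and 1 of 232 bp at 2.44-fold with a −log10 q-value of 3.26. They covered 14.6% of its 4638 bp, and neither end of the gene lay in a peak. The lowest −log10 q-value in the whole list was 1.05. Coverage of Sox21a was 5.002% when only peaks that reached the list's median fold were kept and 0% when only strong peaks were. Its domain, 1.45 kb wide, ranked 436 of 748, and its nearest peak on the upper side, the block over Sox21b and D, began 5462 bp from its own last peak. When peaks were merged across gaps of up to 10000 bp in place of 5000 bp, Sox21a joined the block and its domain became 94922 bp. In the 50 kb below Sox21a, 0.396% of bases were covered, whereas 93.0% of the 50 kb above it were.

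**Figure D2:**
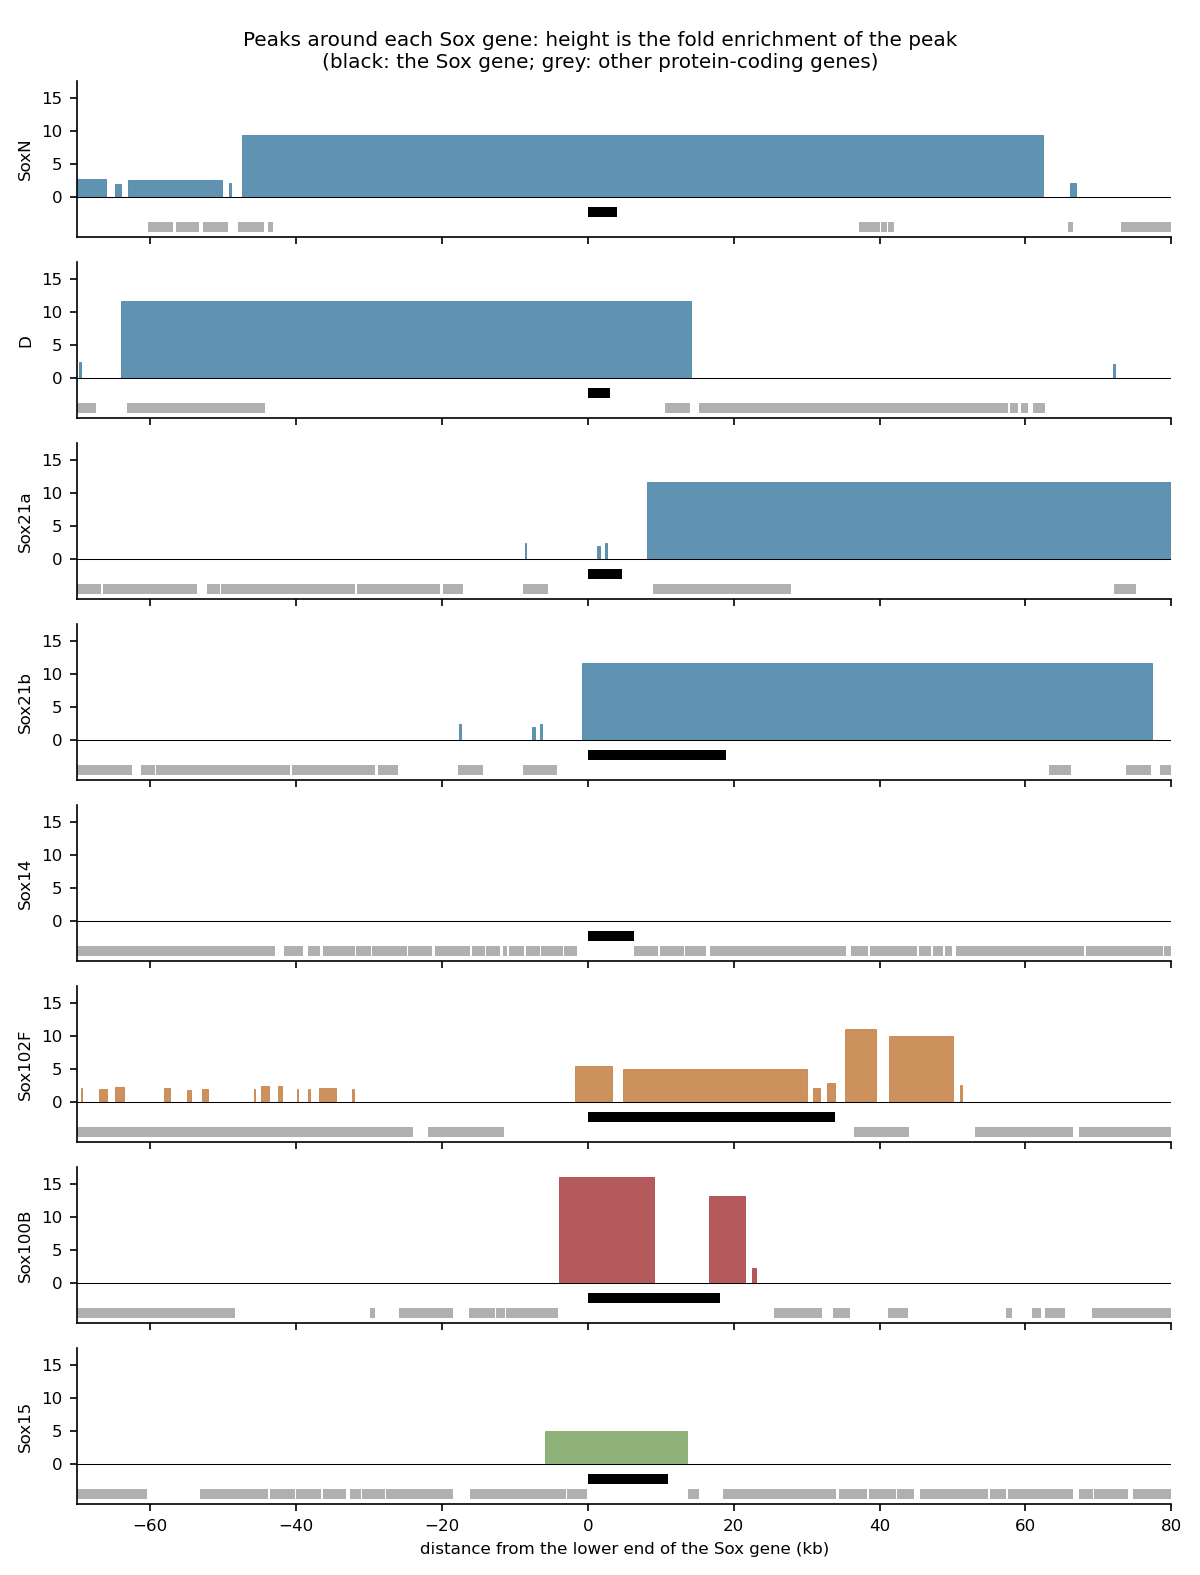
Each panel shows the called peaks around a Sox gene as rectangles, with the distance from the lower end of the gene (kb) on the horizontal axis and the authors' fold enrichment of the peak on the vertical axis; black bars are the Sox gene and grey bars other protein-coding genes. SoxN and D lie inside wide unbroken blocks, Sox21a carries 2 small peaks beside the 78.1 kb block over Sox21b, Sox100B is covered at both ends with an uncovered middle, and no peak appears around Sox14.

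Sox100B had the highest fold enrichment of the family, in narrow peaks that covered part of the gene. It is the fly relative of vertebrate Sox9, is needed for testis development, and also acts in the adult gut. The gene is annotated as Dmel_CG15552 at 3R 31065253 to 31083407. Called peaks lay over both ends of the span and not over its middle. A peak of 13.0 kb at 16.1-fold (−log10 q-value 144.0) covered the lower 9028 bp, and a peak of 4.96 kb at 13.1-fold (−log10 q-value 110.9) covered the upper 1581 bp. A stretch of 7546 bp between them held no called peak, so that 58.4% of the gene was covered. At the 5000 bp gap these are separate domains of 13.0 kb and 6.54 kb, which ranked 202 and 286 by width but 10 and 31 by highest fold. With gaps of up to 10000 bp they became 1 domain of 27098 bp. Neither domain held another protein-coding gene. The lower domain stopped 62 bp short of dco, a casein kinase gene that acts in the circadian clock and in growth control, and the upper one stopped 2341 bp short of CG11317. Neither neighbour met a peak.

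Sox102F, on the small chromosome 4, was covered over most of its length by weaker and more broken signal. The gene, linked in flies to Wnt signalling and to the development of neurons and the heart, is annotated as Dmel_CG11153 at 4 800436 to 834393, and its 33958 bp were covered over 90.3%. It met 4 peaks: 5.08 kb at 5.53-fold over the lower end, 25.2 kb at 5.09-fold over most of the body, then 937 bp at 2.18-fold and 1215 bp at 2.98-fold. The uncovered pieces between these peaks were of 867 to 1554 bp, and the last 12 bp at the upper end were also uncovered. The domain of 53.1 kb (ranked 66 by width) also held fd102C, a Forkhead transcription factor gene 2592 bp above, covered over 77.3%. The highest fold of the domain, 11.1, was over fd102C and not over Sox102F, and extending the Sox102F span by 2000 bp on each side raised its highest fold to that value. Its width depended on weak peaks and on merging: it was 31818 bp with strong peaks only and 25184 bp without merging. On chromosome 4, 9 of 80 protein-coding genes (11.3%) met a peak and 6 were covered over at least 50%. Below Sox102F, MED26, a Mediator subunit gene 11.5 kb away, met no peak.

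Sox15 was covered over 100% by a single moderate peak that extended beyond the gene on both sides. Sox15 is needed in the socket cells of mechanosensory bristles and acts in the wing hinge. It is annotated as Dmel_CG8404 at 2R 14201390 to 14212413. The peak of 19.4 kb, at 5.04-fold with a −log10 q-value of 30.6, reached 5880 bp below and 2510 bp above the 11024 bp gene, which made up 56.8% of it. VGAT, the vesicular GABA transporter gene 140 bp below, was also covered over 100%, and Sdb, the next gene, over 21.7%. At the upper edge the peak stopped 172 bp short of RpS23, a ribosomal protein gene that met no peak.

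Sox14 was the one Sox gene without a peak. Sox14 is induced by the steroid hormone ecdysone and drives the pruning of larval dendrites. It is annotated as Dmel_CG3090 at 2R 23978801 to 23985177. The nearest peak was 183.4 kb away, and no base was covered within 100 kb on either side. Of the protein-coding genes without a peak, 20.2% lay farther from one, and their median distance was 75.9 kb. Its neighbours are dense: PPP1R15 lay 1545 bp below, CG30178 lay 1437 bp above, and Phm, an enzyme of neuropeptide maturation, overlaps the span by annotation. None of these met a peak.

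The blocks met by the 7 marked Sox genes numbered 7 domains, since D and Sox21b share 1 and Sox100B met 2. Together they comprised 22 peaks and 294.8 kb of peak sequence, 2.99% of the 9.86 Mb covered by the whole list. Width and fold enrichment did not follow one order among them, and how a peak's 1 fold value depends on its width was not tested. The SoxN domain was wider than the lower Sox100B domain (145641 against 13008 bp) at a lower fold (9.43 against 16.1). Domain edges differed in where they fell. Over the genome, 50.2% of the 478 edges of domains of at least 10 kb lay inside a protein-coding gene, and the others lay a median of 2.32 kb from the next gene outside, with 5.06% within 200 bp. For the Sox domains of at least 10 kb, the edges toward dco (62 bp) and RpS23 (172 bp) were among the latter. Those toward raw, CG34398, MED26 and Sox21a (6.22, 6.27, 9.69 and 3.48 kb) were farther than that median. Those toward nuf (1145 bp) and Gyf (1807 bp) were nearer than it. The lower Sox15 edge lay inside Sdb, and the upper edge of the 13008 bp Sox100B domain lay inside Sox100B.

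**Figure D3:**
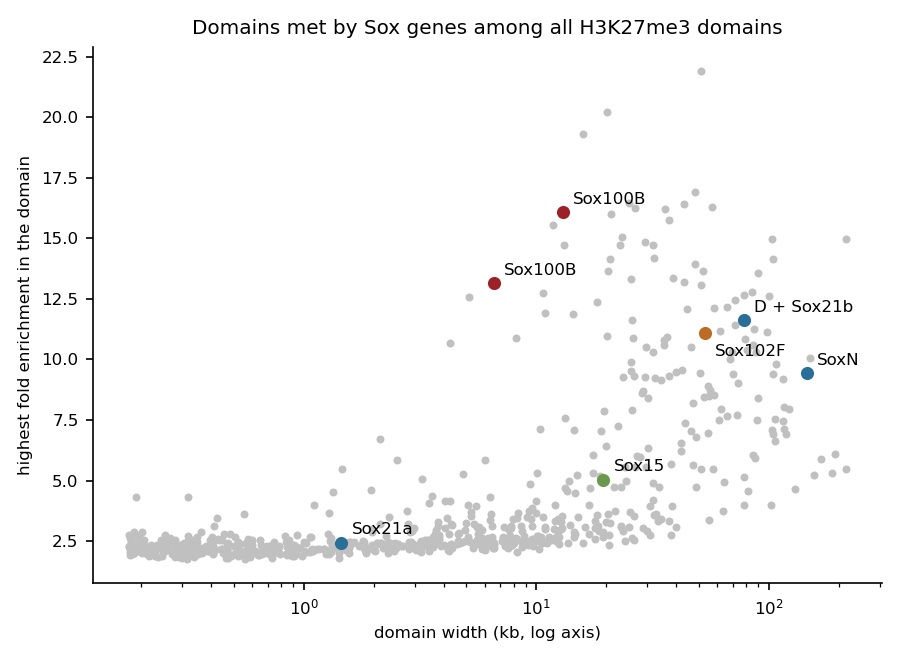
Each grey point is 1 of 748 H3K27me3 domains, by its width (kb, log axis) and the highest fold enrichment of a peak in it; coloured points are the 7 domains met by Sox genes. The SoxN domain lies at the wide end (145.6 kb, 9.43-fold), both Sox100B domains lie high for their width (16.1-fold at 13.0 kb and 13.1-fold at 6.54 kb), and Sox21a lies among the small weak domains (1.45 kb, 2.44-fold).

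To find genes with the most similar pattern, each marked Sox gene was compared with the protein-coding genes outside its own domains by covered share, highest fold (log2) and domain width (log10), over the 1 peak list. The nearest to SoxN were H15 and mid, the T-box genes that share a domain of 150.8 kb at 10.1-fold, and the homeobox gene en at 9.19-fold in 114.8 kb, all covered over 100%. For D and Sox21b the nearest were eIF4H2, CG11313 and CG15543, which lie under 1 domain of 86.8 kb at 11.2-fold. That domain also covers zfh1 over 99.3%, a zinc finger homeobox gene (named after its values were seen). The pattern of Sox15 was nearest to tal-1A, tal-2A and tal-3A, small peptide genes encoded by one transcript, at 5.32-fold in 17.6 kb. For Sox102F they were eg, a nuclear receptor gene of neuroblasts (91.7% covered, 5.63-fold), rho, a protease gene of EGF receptor signalling (86.0% covered, 5.48-fold), and CG43335 (100% covered, 5.47-fold). Sox100B had no close match at the 5000 bp merging gap. The nearest, cnc, a bZIP factor gene, was 55.7% covered at 14.7-fold. Its summed difference was 0.402, compared with 0.110 between SoxN and H15. After cnc came the homeobox gene unpg (15.6-fold) and the Forkhead gene bin (14.7-fold). The width used for Sox100B was that of its wider domain, 13.0 kb, against 22.9 kb for cnc. Other merging gaps were not tried for this comparison. Sox21a was nearest to nab, a transcriptional cofactor gene (19.0% covered, 2.47-fold), then hng3 and CG32645.

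Of 10 genes that share the HMG box but are not Sox genes, none met a peak. A count of 0 of 10 allows a share of up to 30.8% (exact 95% interval, counting error only), which includes the 7.22% of all protein-coding genes, so this list could not be told from the background. These 10 are pan, the TCF factor of Wnt signalling, cic, a repressor acting below receptor tyrosine kinases, bbx, the chromatin proteins HmgD, HmgZ, Dsp1 and Ssrp, the testis genes tHMG1 and tHMG2, and polybromo, a remodelling complex subunit. Their median span of 8566 bp was close to that of the Sox genes, 8701 bp. The nearest peak lay 7.69 kb from pan, on chromosome 4, and between 19.9 kb (HmgD) and 367.7 kb (cic) from the others.

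Genes that act beside the SoxB factors were mostly marked. Over all protein-coding genes, 7.22% met a peak and 4.04% were covered over at least 50%. Among 15 SoxB partner and neural column genes, 12 met a peak and 9 were covered over at least 50%. They included nub and pdm2, POU factor genes in 1 domain (6.91-fold, 100% and 91.1% covered), vvl, a POU partner gene of D (80.04% covered, 5.70-fold), sim, the midline regulator (98.8% covered, 14.2-fold), and wor (100% covered, 5.56-fold). Of the neural column genes, Dr was covered over 100% (5.93-fold), vnd over 4.31% (2.29-fold), and ind met no peak. The proneural genes ac and sc were covered over 100% and 83.9%, while ase and l(1)sc met none. Of 10 segmentation genes, 7 met a peak and all 7 were covered over at least 50%: eve (19.3-fold), ftz (12.8-fold), Kr (11.1-fold), en, kni (8.52-fold), wg (7.50-fold) and run (3.14-fold). The remaining members, hb, gt and hairy (h), met none. Among all protein-coding genes with a peak, 56.0% were covered over at least 50%.

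In the lists around the other subfamilies, the ecdysone genes were too few to tell their share with a peak from that of all genes. Of 9 such genes, 1 met a peak (11.1%, against 7.22%), Eip74EF, over 5.88% of its span at 4.35-fold, and EcR, usp, br, Eip75B, Hr3, ftz-f1, Mical and Cul1 met none. Mical is a target of Sox14 in dendrite pruning. Among 9 gut stem cell genes around Sox21a and Sox100B, 4 met a peak and 3 were covered over 100%: GATAe, a gut GATA factor (16.3-fold), esg (4.01-fold) and upd3 (3.13-fold). The fourth, bnl, was covered over 1.94%, and Delta, tap, spi, Egfr and Stat92E met none. Of 6 gonad genes around Sox100B, 4 met a peak: Abd-B (100% covered, 15.0-fold), dsx, the sex determination factor (91.0% covered, 9.48-fold), tj (53.2% covered, 2.54-fold) and Wnt2 (40.7% covered, 2.53-fold). Of 9 wing hinge and Wnt genes around Sox15 and Sox102F, 7 met a peak and 3 were covered over at least 50%. These were vg (4.90-fold), nub and wg, while rn, zfh2 and hth were covered over 42.1%, 40.9% and 25.2%, fz2 over 0.754%, and arm and fz not at all. Several lists share genes, and their counts are to be read beside the all-gene shares, 7.22% with a peak and 4.04% covered over at least 50%. Median spans were 50703 bp (ecdysone), 39065 bp (wing hinge and Wnt), 26054.5 bp (gonad) and 10029 bp (gut stem cell), against 2163 bp for all protein-coding genes. They were 2430 bp for the SoxB partner list and 3850 bp for the segmentation list. The part of length in these counts was not tested.

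**Figure D4:**
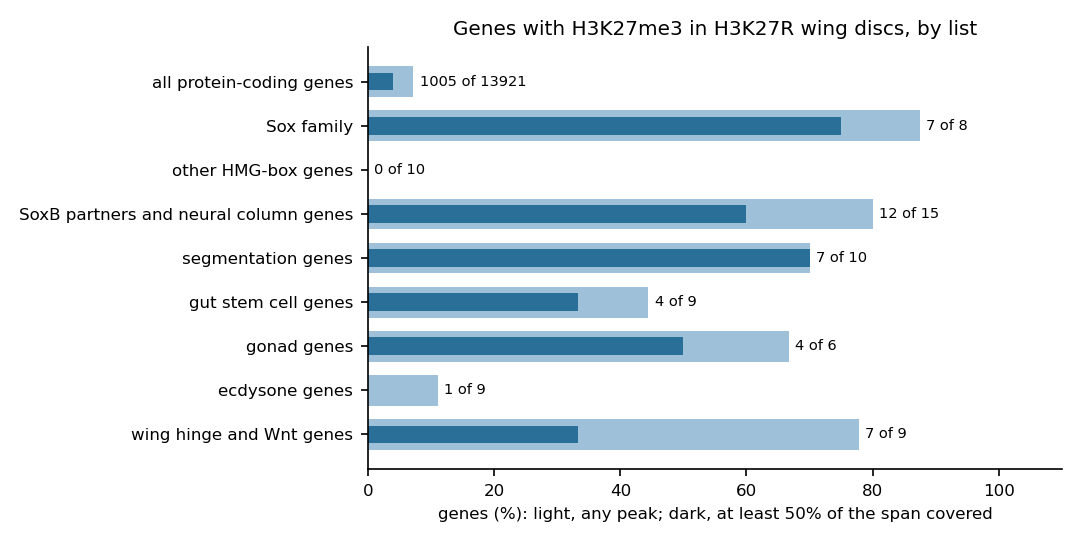
Horizontal bars give the share of genes (%) that meet a peak (light) or are covered over at least 50% of the span (dark) for all protein-coding genes, the Sox family and 7 gene lists, with the number of genes that meet a peak. The Sox family (7 of 8) lies far above all genes (1005 of 13921). The other HMG-box genes (0 of 10) and the ecdysone genes (1 of 9) are too few to tell from the share of all genes.

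The labelled tissue could not be checked by expression, since the files hold none. Beside the 7.22% of all protein-coding genes, 7 of 8 wing disc genes met a peak, sd being the exception, and all 5 eye-antennal regulators (ey, toy, so, eya and dac) were covered over 95.5% to 100%. All 4 markers of adult muscle precursors and all 4 of trachea met a peak, as did srp of 4 haemocyte markers. The median spans of these lists ran from 13452 bp (trachea) to 43114.5 bp (adult muscle precursors), against 2163 bp for all protein-coding genes. The part of length, and that of these tissues, in the results was not tested.

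None of the 8 Sox genes was among those the authors list as upregulated with H3K27M, which made up 0.941% of all protein-coding genes (131 of 13921). At that share, 0.0753 of 8 genes would be listed, and 0 of 8 allows a share of up to 36.9% (exact 95% interval, counting error only), so a share below that of all genes was not detectable. The list holds intervals only, with no expression value for a gene that is absent from it. No listed gene overlapped a Sox gene or lay within 5000 bp of one, and no gene of the domains met by Sox genes was listed. The nearest listed gene to Sox14, the unmarked member, was ppk29 at 67.7 kb. For the marked members the distances were 211.1 kb (CG1909, to Sox102F), 481.6 kb (Rpt6R, to Sox100B), 1096 to 1168 kb (CG11263, to Sox21a, Sox21b and D), 1167 kb (SoYb, to SoxN) and 1220 kb (Psc, to Sox15). The median distance of unlisted protein-coding genes to a listed gene was 360.2 kb. The 6 marked members other than Sox102F lay farther than that median, and Sox102F and Sox14 nearer. Sox21a, Sox21b and D lie in the same cluster and were measured to the same listed gene. On chromosome 4, which holds Sox102F, 4 of 80 protein-coding genes were listed. A share of 14.7% of unlisted protein-coding genes lay as near to a listed gene as Sox14 or nearer. Of the listed genes, zfh2 was the one that also stood on a list above.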

How the data were processed

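Per the submitters' processing notes, Bowtie2, MACS2 and the build dm6 were used; for versions, the peak threshold and the background sample, the sources used here say nothing. The deposited peak list, per its file layout, gives each peak's start and end (other values), a score (not used), the authors' fold enrichment (a ratio), a −log10 p-value (not used) and a −log10 q-value, for both H3K27R replicates together. The deposited list of upregulated genes holds intervals only, and its making is likewise not described.

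Genes came from the RefSeq table of assembly Release 6, the assembly dm6 names, without 1 gene on an unlocalised scaffold. All 148 listed intervals equalled 1 gene span. Coordinates are 1-based. Overlap was at least 1 bp, the covered share is covered bases over the annotated span, and the highest fold is that of any peak met. Overlap code was tested on simulated peaks. Python 3.11.15, pandas 2.3.3, numpy 2.4.6 and scipy 1.17.1 were used. All 93 entries of the 12 lists matched, 2 of them by synonym or locus tag. Named genes were all 8 members, genes in their domains, the nearest coding genes, the 3 nearest in pattern, the nearest listed gene and genes of the lists. Members and lists were chosen with earlier results of these data known. No hypothesis test was run, since the files hold no replicate values. Sequences, start sites and motifs were not used here.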

Additional observations from a re-analysis of the deposited data

How the results depend on the processing

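No paired analysis was possible because the peak list joins the replicates and the gene list holds no values, and leaving a replicate out was not possible either. The window around the annotated start was not run for want of strands, and either end of the span in a peak, chosen after seeing the data, took its place (6 of 8 Sox genes, against 4.58% of all genes). Counts of marked, at least 50% covered and strongly marked Sox genes stayed within 6 to 7 under the alternatives of peak strength and span, and the count on the upregulated list stayed at 0. Over all protein-coding genes, the share with a peak was 3.43% with strong peaks only and 5.22% with peaks that reached the median fold. With the span extended by 2000 bp it was 9.83%. The shares covered over at least 50% were 2.84%, 3.65% and 3.69% in the same order. The median domain width over the 7 marked genes, 53081 bp, moved by more than 1.5 times with the merging gap, which sets it by construction: 25184 bp without merging, 29079 bp with gaps of up to 1000 bp and 94922 bp with gaps of up to 10000 bp. Of the values for single genes, 10 of 71 moved by more than 1.5 times, all of Sox21a, Sox102F or Sox100B. Coverage of Sox21a was 7.84% with the span extended by 2000 bp. Read depth is unknown, so how far weak peaks such as those over Sox21a depend on it was not tested.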
